A study of Mus musculus with 6 samples.

Results

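The transcripts of 9 small leucine-rich proteoglycan (SLRP) genes, namely Dcn, Bgn, Lum, Fmod, Ogn, Prelp, Kera, Chad and Aspn, were examined in calf muscle of mice that overexpress integrin alpha7. They were measured by 20 probe sets that carry exactly 1 of these symbols, of 45037 probe sets on the array that were not controls, and are 9 of 18193 genes named there. The family was selected on the signals of this same comparison, in which Dcn was lower in transgenic muscle, so the differences between genotypes are given as a description and without a test. Each of the 6 arrays carried RNA pooled in equal amounts from 6 mice. Integrin alpha7 transgenic mice gave 3 arrays and wild type controls 3, with 18 animals behind each. All mice were females aged 5 weeks, were not fasted, and had the background SJ6/C57BL6; gastrocnemius and soleus were processed as 1 tissue. The sources used here name neither the promoter that drives the transgene nor the meaning of the word intronic, which the titles of the control arrays carry. Pooling averages single animals, so the spread between arrays is a spread between pools.

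SLRPs are secreted proteins of the connective tissue matrix, built from leucine-rich repeats that curve around collagen. They coat collagen fibrils, limit how fibrils fuse and thicken, and hold growth factors such as TGF-beta near the cell. In skeletal muscle they are made mainly by the fibroblasts of the endomysium and perimysium and by the cells of tendon and myotendinous junction, while the muscle fibre itself contributes little. In whole muscle, fewer cells of such a type and less RNA per cell cannot be told apart.

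The label of the transgenic arrays was borne out by Itga7, the overexpressed gene, whose signal was 2072 to 2498 on transgenic arrays and 254 to 313 on wild type arrays. Over 27022 probe sets bright enough to be tested, correlation between arrays was 0.971 to 0.981, and its 5 lowest values were the 5 pairs with transgenic replicate 3. All 8 of 8 muscle fibre markers were present at high signal, and their sum was 148722 to 155556 on transgenic and 163417 to 166911 on wild type arrays, without overlap; no kept marker of any cell type was at 0. In the fit over all probe sets, 33 passed an adjusted p of 0.05, which is 0.122% of those tested, with 0.0999% higher and 0.0222% lower in transgenic muscle (limma, Benjamini-Hochberg). All 20 SLRP probe sets were above the filter on dim probe sets, and none of them was among the 33. At an unadjusted p under 0.05 in limma were 3 of the 20, beside 7.85% of all tested. The family was selected on this comparison, so nothing is read from that count.

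Dcn encodes decorin, a collagen-binding proteoglycan with a chondroitin or dermatan sulphate chain that also binds TGF-beta and, in cell culture, myostatin. Its main probe set, 1449368_at, gave 6848, 6145 and 6742 on transgenic arrays and 8466, 7861 and 8176 on wild type arrays. Every transgenic array was below every wild type array, and the gap between the nearest arrays was wider than the spread within either genotype. Mean signal was 6578 ± 379 in transgenic and 8168 ± 303 in wild type muscle (SD, n = 3 each), or 0.805-fold. On the log2(signal + 16) scale, on which all differences here are given, this was -0.31 with a standard error of 0.06 and a 95% interval of -0.44 to -0.19.

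A further probe set of Dcn, 1441506_at, went the other way at a dim signal, close to the filter of 21.7 on 1 wild type array. It gave 43.8, 55.1 and 52.6 on transgenic and 47.0, 22.4 and 31.1 on wild type arrays, a difference of 0.45 with a standard error of 0.23. The genotypes overlapped there, and the interval, -0.06 to 0.96, was several times as wide as that of the bright probe set. The 2 probe sets of Dcn therefore gave opposite signs, and which part of the transcript each one reads was not analysed here.

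Ogn encodes osteoglycin, also called mimecan, a short SLRP of bone, muscle and vessel wall matrix. Probe set 1419663_at gave 1636, 1647 and 1622 on transgenic arrays against 1834, 1789 and 1782 on wild type arrays. Probe set 1419662_at gave 1611, 1748 and 1734 on transgenic arrays against 2053, 1920 and 1809 on wild type arrays. Both probe sets of Ogn had all transgenic arrays below all wild type arrays, though by a narrow margin on 1419662_at. The differences were -0.14 and -0.18, with standard errors of 0.06 and 0.07. With equal array medians they were smaller, -0.07 and -0.11, and the difference of the bright Dcn probe set was -0.24.

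These 3 probe sets, 1 of Dcn and 2 of Ogn, were the ones of the 20 whose genotypes did not overlap. Over all tested probe sets, transgenic arrays lay wholly below wild type arrays for 7.5% and wholly above for 5.85%, together 13.4%. Because the family was chosen with this comparison in view, nothing is read from that count.

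**Figure D1:**
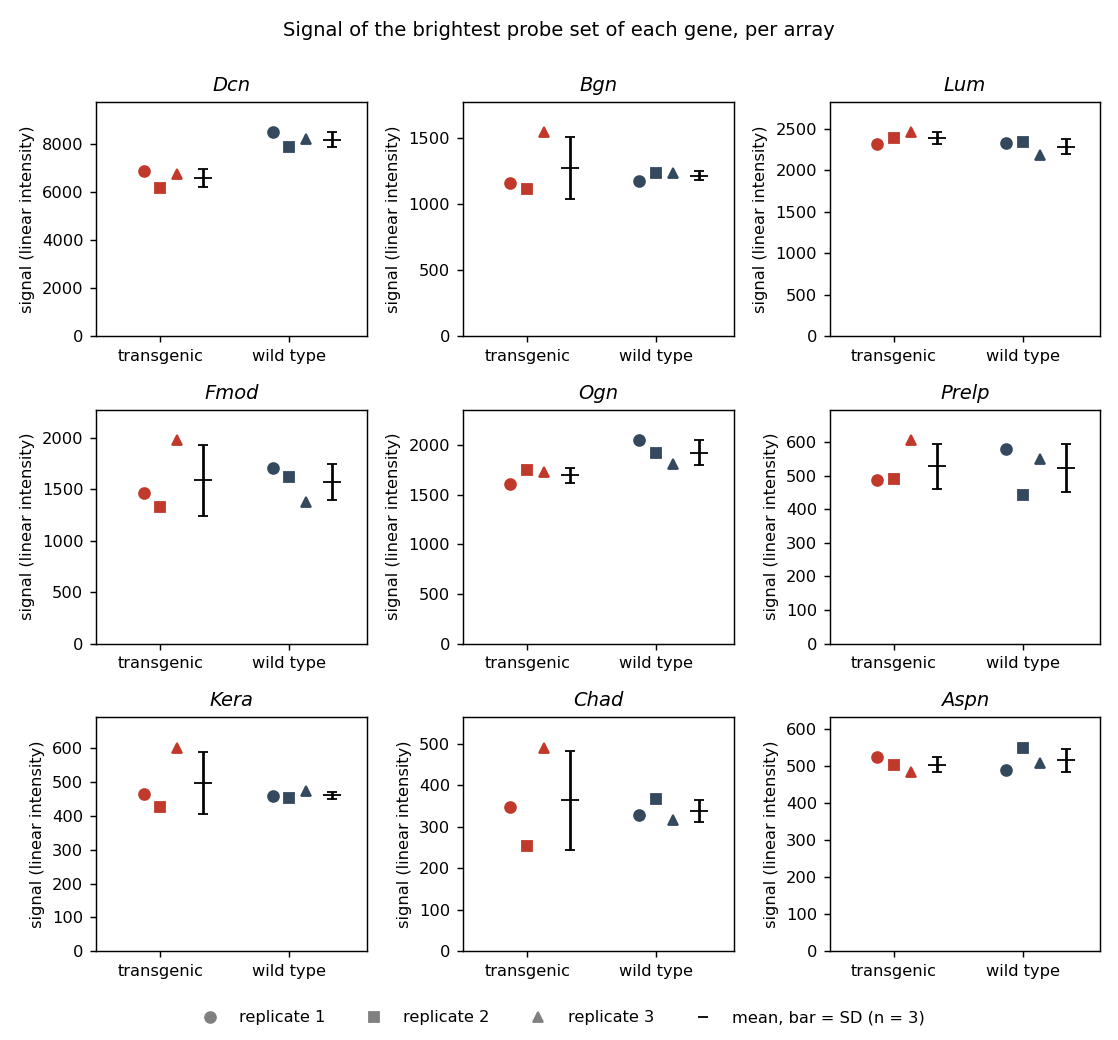
Signal (linear intensity, from 0) of the brightest probe set of each gene on each array, with transgenic arrays in red and wild type arrays in dark blue; marker shapes give the replicate and black bars the mean with its SD (n = 3). Transgenic arrays lie below wild type arrays for Dcn and Ogn, and transgenic replicate 3 lies above all others for Bgn, Fmod, Kera, Prelp, Chad and Lum.

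Lum encodes lumican, a keratan sulphate SLRP known for the clarity of the cornea and present in muscle fibroblasts. It gave 2316, 2384 and 2457 on transgenic and 2333, 2336 and 2186 on wild type arrays. The genotypes overlapped, and the difference was 0.06 with a standard error of 0.06. On the genome Lum follows Dcn directly among the SLRP genes of chromosome 10, and the 2 were set against each other within each array. The log2 signal of Dcn minus that of Lum was 1.56, 1.36 and 1.45 on transgenic and 1.85, 1.74 and 1.90 on wild type arrays, without overlap. The level of Dcn relative to Lum thus differed between genotypes by -0.37, which describes an unequal difference of the pair and not a level of either gene. As Lum differed little, it mostly restates the difference of Dcn. The family was selected on a comparison in which Dcn was lower, so the lack of overlap adds nothing to it.

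Aspn encodes asporin, an SLRP with a stretch of aspartates in place of a sulphated sugar chain. Probe set 1416652_at gave 524, 502 and 485 on transgenic and 489, 549 and 508 on wild type arrays, a difference of -0.03. Probe set 1448421_s_at, whose suffix marks probes shared by more than a single transcript, gave 347, 466 and 241 on transgenic and 391, 437 and 372 on wild type arrays. Its transgenic arrays held both the highest and the lowest value of all 6, so its difference of -0.22 (standard error 0.18) rests on transgenic replicate 3 and was 0.01 without it. With equal array medians the difference of 1416652_at was 0.04.

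**Figure D2:**
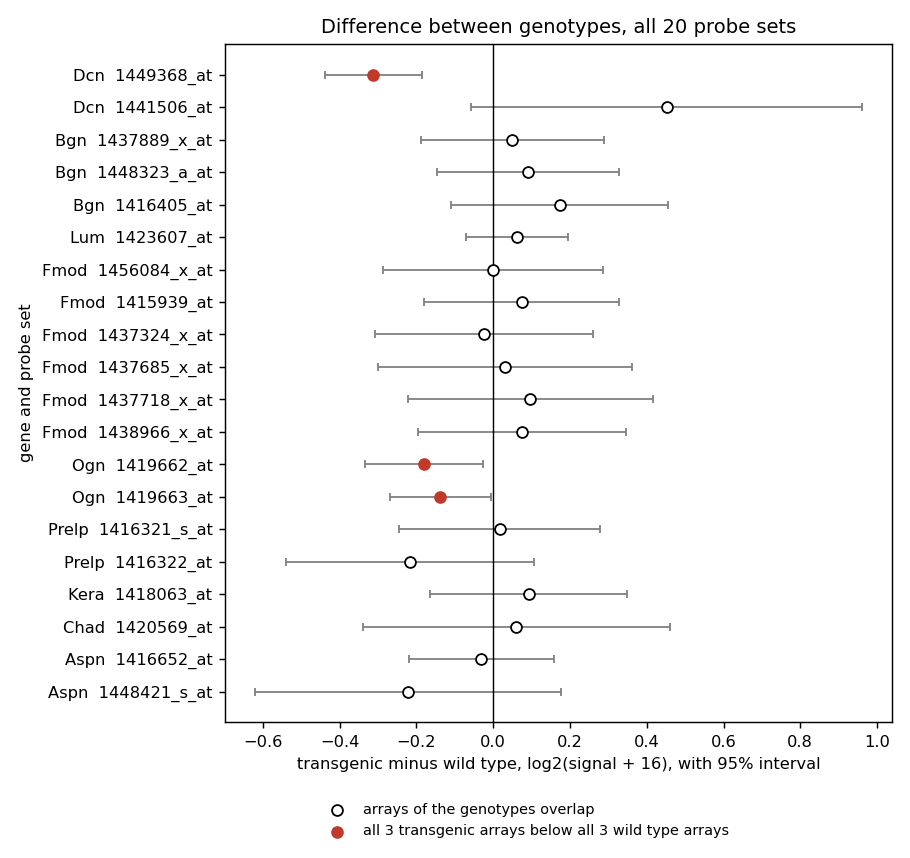
Difference between genotypes (transgenic minus wild type, log2(signal + 16)) for all 20 probe sets, with the 95% interval of the fit. Filled red points mark the 3 probe sets, of Dcn and Ogn, whose transgenic arrays all lie below the wild type arrays; the intervals are drawn to describe precision and test nothing, since the family was chosen with this comparison known.

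Fmod, Bgn, Kera and Chad spread more widely among transgenic than among wild type arrays on each of their probe sets. Prelp, Aspn and Dcn each did so on 1 of 2. Fmod encodes fibromodulin, a keratan sulphate SLRP that shapes collagen fibrils in tendon. On 1415939_at it gave 1390, 1192 and 1771 on transgenic arrays and 1364, 1348 and 1366 on wild type arrays. The wild type arrays were nearly equal, while transgenic replicate 3 was the highest and transgenic replicate 2 the lowest of the 6. Spread within the genotype was 0.28 among transgenic and 0.01 among wild type arrays (SD of log2 values, n = 3 each). The brightest probe set of Fmod, 1456084_x_at, gave 1462, 1325 and 1978 on transgenic and 1710, 1624 and 1380 on wild type arrays, and its difference was 0.00 with a standard error of 0.13. Transgenic replicate 3 was again the highest there and transgenic replicate 2 the lowest. Of the 6 probe sets of Fmod, 5 carry the suffix x_at, which marks probes that may bind other transcripts, and the differences ran from -0.02 to 0.10. The dimmer ones, 1437324_x_at, 1437685_x_at, 1437718_x_at and 1438966_x_at, gave -0.02, 0.03, 0.10 and 0.08.

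Bgn encodes biglycan, the closest relative of decorin, which in muscle also binds dystroglycan and sarcoglycans at the fibre membrane. On 1437889_x_at it gave 1157, 1113 and 1542 on transgenic and 1177, 1235 and 1232 on wild type arrays. On 1448323_a_at it gave 1042, 954 and 1333 on transgenic arrays, against 1023, 1065 and 1003 on wild type arrays. The third probe set, 1416405_at, gave 1010, 871 and 1309 on transgenic and 854, 1029 and 909 on wild type arrays. All 3 probe sets of Bgn were highest on transgenic replicate 3, and their differences of 0.05, 0.09 and 0.17 had standard errors of 0.11, 0.11 and 0.13. Without transgenic replicate 3 they were -0.10, -0.05 and 0.02.

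Kera encodes keratocan, a keratan sulphate SLRP of cornea that is also found in tendon. It gave 464, 427 and 601 on transgenic and 458, 453 and 472 on wild type arrays, with transgenic replicate 3 the farthest from the rest. Chad encodes chondroadherin, a leucine-rich cartilage protein that binds collagen and an integrin of chondrocytes. Its signal was 348, 254 and 490 on transgenic arrays and 329, 367 and 316 on wild type arrays. Chad had the widest spread of the 9 brightest probe sets, 0.45 among transgenic and 0.11 among wild type arrays (SD of log2 values, n = 3 each). The differences, 0.09 for Kera and 0.06 for Chad, were smaller than their standard errors of 0.12 and 0.18.

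Prelp encodes a basic SLRP that binds heparan sulphate and links basement membrane to collagen. On 1416321_s_at it gave 488, 491 and 606 on transgenic and 578, 442 and 549 on wild type arrays, a difference of 0.02. On 1416322_at it gave 142, 140 and 204 on transgenic arrays, against 199, 186 and 180 on wild type arrays, a difference of -0.22 with a standard error of 0.15. On this dimmer probe set 2 transgenic arrays lay below all wild type arrays and transgenic replicate 3 lay above them, and without that array the difference was -0.38.

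Across the family, transgenic replicate 3 was the highest of the 6 arrays for 13 of 20 probe sets, from 6 genes, and transgenic replicate 2 the lowest for 11. Over all 27022 tested probe sets the same was so for 19.4% and 15.0%. The spread was larger among transgenic than among wild type arrays for 14 of the 20, and for 53.0% of all tested probe sets. Probe sets of 1 gene share their transcript, so that these counts are not 20 separate observations. Of the 20 differences 7 were negative and 13 positive, but without transgenic replicate 3 it was 15 and 5. With equal array medians it was 5 and 15, with quantile normalization 8 and 12, and with array quality weights 12 and 8. The signs of the family were therefore mixed and moved with 1 array and with the scaling. The median over the brightest probe set of each gene was 0.02, beside -0.00 over the 12942 genes tested.

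The clock times of hybridisation in the run files, read without their dates, fell into 2 groups, taken here as rounds. Whether the arrays of a round were hybridised on the same day was not read. The second round held only transgenic replicate 3 and wild type replicate 3. In the first round, with 2 arrays of each genotype, 16 of the 20 differences were negative, and in the second, with 1 of each, 5 were. Within rounds the bright Dcn probe set gave -0.33 in the first and -0.28 in the second, and Ogn 1419663_at gave -0.14 and -0.13. The other Ogn probe set, 1419662_at, gave -0.24 in the first round and -0.06 in the second. Chad, by contrast, gave -0.22 in the first round and 0.61 in the second, and Fmod 1456084_x_at -0.26 and 0.51. The sign was the same in both rounds on each probe set of Dcn, Ogn, Lum and Aspn, and it was not for Chad, Kera, both probe sets of Prelp, 2 of the 3 of Bgn and 5 of the 6 of Fmod. With a lone pair of arrays in the second round, the difference between rounds was not tested.

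**Figure D3:**
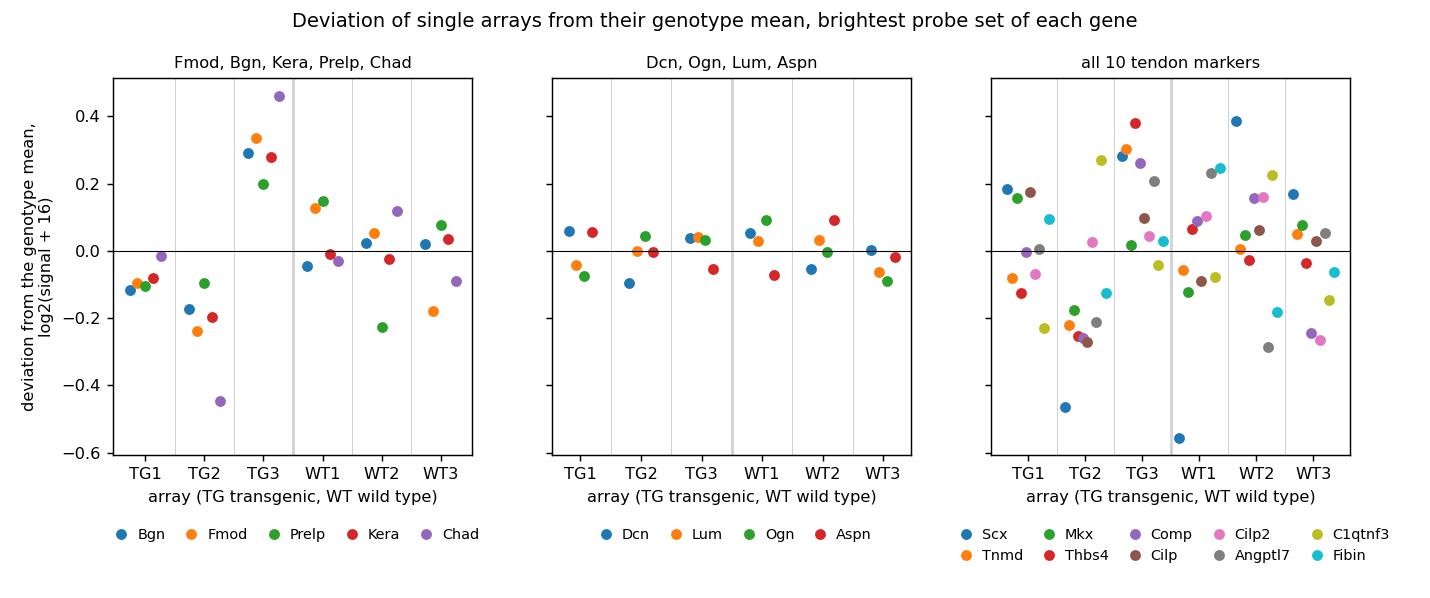
Deviation of each array from the mean of its genotype (log2(signal + 16), brightest probe set of each gene) for 2 sets of SLRP genes, grouped after their values were seen, and for all 10 tendon markers. Fmod, Bgn, Kera, Prelp and Chad are high on transgenic replicate 3 (TG3), Chad at 0.46, and of the tendon markers 4 of 10, among them Tnmd and Thbs4, have their highest signal there; Dcn, Ogn, Lum and Aspn stay within 0.10 of their genotype mean on all arrays.

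Some tendon markers were high on the same array. The summed signal of all 10 of 10 tendon markers was 4502, 3926 and 5535 on transgenic and 4374, 4207 and 4233 on wild type arrays, again highest on transgenic replicate 3 and lowest on transgenic replicate 2. Thbs4, a thrombospondin of tendon and its junction with muscle, gave 1277, 1167 and 1818 on transgenic arrays against 1306, 1225 and 1217 on wild type arrays. Tnmd, tenomodulin, gave 1071, 971 and 1405 on transgenic arrays and 1166, 1216 and 1257 on wild type arrays. Each of the pair had its highest value on transgenic replicate 3 and its lowest on transgenic replicate 2. Of the 10 markers 4 were highest on transgenic replicate 3 and 5 lowest on transgenic replicate 2, beside 2875 and 2076 of all 12942 genes tested, so that the sum follows its bright members. Of 11 fibroblast markers 4 and 6 were so placed, and of 5 macrophage markers 0 and 4. Scx, the tendon transcription factor, was dim, at 25.4 to 53.6 on transgenic and 26.3 to 65.2 on wild type arrays. Between genotypes, 5 tendon markers had positive and 5 negative differences. The largest was that of Angptl7, 0.43, with overlap and an adjusted p of 0.426 in limma. Cartilage markers, 5 of 11 kept, summed to 191 to 300 on transgenic and 190 to 237 on wild type arrays. The part of tendon tissue in the SLRP values was not tested.

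Of 12 fibroblast markers, the cell type that makes most decorin in muscle, 11 were kept, 5 with positive and 6 with negative differences at a median of -0.01. Their summed signal was 19811 to 20824 on transgenic and 21356 to 21779 on wild type arrays, without overlap, and Gsn was the largest part of it. The median log2 deviation of the 11 markers from their own means over all arrays, in which Gsn does not dominate, overlapped. It was -0.08, -0.11 and 0.06 on transgenic and 0.01, 0.03 and 0.05 on wild type arrays. Gsn, gelsolin, which muscle also expresses, gave 12426, 12286 and 12515 on transgenic and 13497, 13436 and 13964 on wild type arrays. Pdgfra, the receptor that defines these fibroblasts, gave 538, 621 and 658 on transgenic arrays and 626, 693 and 653 on wild type arrays, with overlap. Dpt, dermatopontin, a matrix protein that binds decorin, had a difference of -0.01. The part of fibroblast number in the difference of Dcn was not tested.

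As a check of likeness, the 6 deviations of each array from its genotype mean, which leave out the difference between genotypes, were compared with those of 12503 other probe sets of signal 100 or more. Nearest to Dcn was Cnbp, at a root mean square difference of 0.01, followed by Bscl2, Pdrg1, Kmt2e and Pmpca, each at 0.01. Nearest to Chad, the most variable member, were Phb2 and Rusc1, each at 0.06, then Tagln at 0.06, Gadd45b at 0.07 and Pspc1 at 0.07. Among the members, Bgn and Kera were nearest to each other, at 0.03. These are descriptions over 6 arrays only.

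Most of the genes lie in clusters, which the RefSeq gene table of assembly GRCm38.p6 places as follows. On chromosome 10, Dcn (97479500 to 97518163), Lum (97565501 to 97572703), Kera (97606962 to 97613688) and Epyc follow each other, with gaps of 47.3, 34.3 and 30.4 kb. The cluster lies 31.4 Mb from Itga7, measured from Dcn, on the same chromosome. Neighbours within it differed, as Dcn gave -0.31, Lum 0.06 and Kera 0.09, and Epyc had no probe set above the filter. On chromosome 13, Ecm2, Aspn (49544443 to 49567565), Omd and Ogn (49608015 to 49624501) are adjacent, and all 4 had negative differences, from -0.03 for Aspn to -0.45 for Omd, although that of Aspn was 0.04 with equal array medians. Omd, osteomodulin, gave 107, 99.7 and 143 on transgenic and 135, 207 and 156 on wild type arrays, with overlap and an adjusted p of 0.557 in limma. Prelp (133910304 to 133930102) and Fmod (134037254 to 134048280) lie on chromosome 1. Chad (94565047 to 94569127) on chromosome 11 and Bgn (73483601 to 73495936) on chromosome X each lie apart from the other genes of the family.

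**Figure D4:**
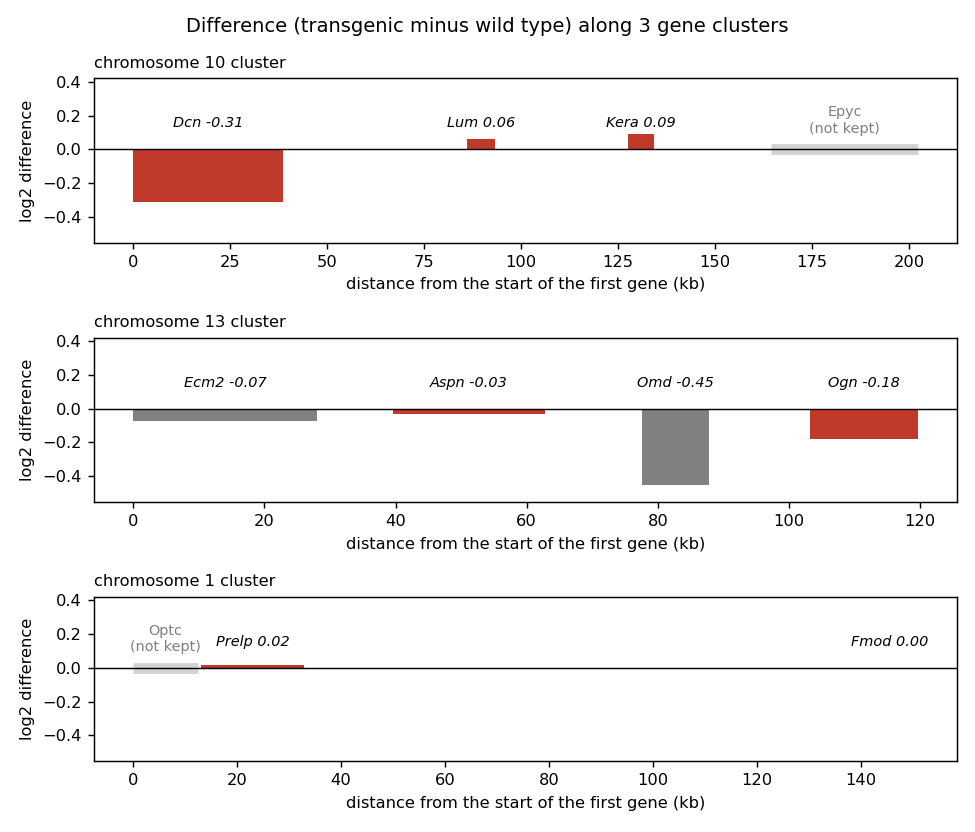
Difference between genotypes (transgenic minus wild type, log2(signal + 16), brightest probe set) of the genes in 3 SLRP clusters, against distance in kb from the start of the first gene; bar width is gene length, red marks the genes of the family examined and grey other SLRP genes, of which Epyc and Optc had no kept probe set. Dcn, at -0.31, stands beside Lum and Kera with values near 0, and Omd and Ogn are the lowest of the chromosome 13 cluster.

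The sequences before the starts of Bgn, Fmod and Chad, each highest on transgenic replicate 3 on its brightest probe set, and of Ogn, which was not, are shown so that the regions can be compared. They are the 250 bases before the RefSeq start on GRCm38.p6, written 5′ to 3′ on the strand of the gene; 7 of the 9 genes matched the promoter table. Capitals mark matches on either strand to the TATA box TATAAA, to the E-box CAGATG or to the AP-1 site TGANTCA.
Bgn, chrX:73483351-73483600, + strand: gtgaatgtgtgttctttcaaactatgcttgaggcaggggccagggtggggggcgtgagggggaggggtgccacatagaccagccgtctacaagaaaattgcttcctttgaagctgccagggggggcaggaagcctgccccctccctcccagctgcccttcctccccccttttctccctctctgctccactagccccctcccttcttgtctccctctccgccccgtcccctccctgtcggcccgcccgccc
Fmod, chr1:134037004-134037253, + strand: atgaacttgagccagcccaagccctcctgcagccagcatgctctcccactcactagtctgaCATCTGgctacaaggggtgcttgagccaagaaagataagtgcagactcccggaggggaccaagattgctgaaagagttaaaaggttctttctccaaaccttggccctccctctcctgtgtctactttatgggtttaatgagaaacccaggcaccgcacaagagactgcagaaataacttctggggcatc
Chad, chr11:94564797-94565046, + strand: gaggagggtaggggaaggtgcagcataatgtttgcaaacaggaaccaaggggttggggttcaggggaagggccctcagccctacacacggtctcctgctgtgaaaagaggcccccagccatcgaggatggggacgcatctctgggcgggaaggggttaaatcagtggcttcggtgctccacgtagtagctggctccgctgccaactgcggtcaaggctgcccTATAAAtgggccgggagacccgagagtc
Ogn, chr13:49607765-49608014, + strand: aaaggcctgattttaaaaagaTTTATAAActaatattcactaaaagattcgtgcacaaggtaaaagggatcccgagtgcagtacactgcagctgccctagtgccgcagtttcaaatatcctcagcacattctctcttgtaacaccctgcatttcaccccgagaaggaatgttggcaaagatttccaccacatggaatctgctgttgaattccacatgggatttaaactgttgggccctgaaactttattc
Chad held a TATA box whose first base lies 28 bases before the start. Fmod held an E-box, as its reverse complement, 189 bases before the start. Bgn held none of the 3 motifs, as spelled above, in this window. In Ogn a pair of overlapping TATA matches lay far upstream, at 227 and 229 bases. Over all 32851 promoters of the table, 12.4% held a TATA box in these 250 bases, 14.4% the E-box and 6.75% the AP-1 site. As Bgn held none of the 3 motifs as spelled, none of these could be shared by Bgn, Fmod and Chad. Only CAGATG was searched as an E-box, and other forms of the E-box were not marked or counted. Nothing is read from this. Prelp, Kera and Aspn also matched the promoter table and are not shown, although Prelp and Kera too were highest on transgenic replicate 3.

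Genes that build, bind or degrade SLRPs were listed for comparison, and none of their brightest probe sets passed over all genes in limma, in either direction. Among the 12942 genes tested in this way, 0.124% passed as higher and 0.0232% as lower. Transgenic arrays lay wholly above wild type arrays for 6.67% of these genes and wholly below for 7.56%, together 14.2%.

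Collagen partners, 12 of 12 kept, had 7 positive and 5 negative differences with a median of 0.04. Col3a1, the fibrillar collagen of loose matrix, gave 10190, 10437 and 10281 on transgenic and 9839, 11161 and 10380 on wild type arrays. Col1a2, a chain of type I collagen to which decorin binds, gave 6663, 6373 and 7679 on transgenic and 8314, 8445 and 7485 on wild type arrays, 0.853-fold with an adjusted p of 0.441. Its genotypes overlapped through transgenic replicate 3. Of the 12 collagen genes 6 were highest on that array. Among collagen maturation genes, 16 of 19 kept, it was 11, and their differences were 9 positive and 7 negative at a median of 0.02. Serpinh1, the collagen chaperone of the endoplasmic reticulum, gave 1386, 1461 and 1749 on transgenic and 1266, 1276 and 1287 on wild type arrays, without overlap, at 1.19-fold and an adjusted p of 0.481.

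Of the enzymes that assemble the chondroitin and dermatan sulphate chains of decorin and biglycan, 18 of 23 were kept, 7 with positive and 11 with negative differences at a median of -0.03. Chst15, a sulphotransferase of chondroitin chains, gave 52.6, 103 and 84.6 on transgenic and 142, 154 and 126 on wild type arrays, 0.599-fold with an adjusted p of 0.303. All transgenic arrays of Chst15 were below all wild type arrays. Chpf, a chondroitin polymerising factor, gave 61.0, 13.1 and 76.8 on transgenic and 73.4, 78.0 and 100.3 on wild type arrays, a difference of -0.74 with overlap. Transgenic replicate 2 was far below all other arrays there. B3galt6, also among the 3 largest differences of this list, went the other way, at 0.36 with overlap. Csgalnact2, which starts chondroitin chains, had a difference of 0.03. For keratan sulphate, the chain of lumican, fibromodulin and keratocan, 5 of 8 genes were kept with a median of -0.01, and B4galt1, a galactosyltransferase, gave -0.01. For sulphate and nucleotide sugar supply 10 of 11 were kept, 4 positive and 6 negative at a median of -0.04. There, Papss2, which makes the sulphate donor, was 144, 136 and 127 on transgenic arrays and 148, 156 and 168 on wild type arrays, 0.876-fold without overlap and with an adjusted p of 0.754.

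Among ligands and receptors that SLRPs bind, 20 of 23 were kept, 7 positive and 13 negative at a median of -0.03. Tgfbr2, a TGF-beta receptor, gave 795, 905 and 807 on transgenic and 830, 1051 and 900 on wild type arrays, with overlap. Ccn2, the connective tissue growth factor and a target of TGF-beta, gave 471, 423 and 451 on transgenic and 446, 358 and 335 on wild type arrays, 1.18-fold with an adjusted p of 0.648. Vldlr, a lipoprotein receptor, overlapped between genotypes and gave 0.771-fold with an adjusted p of 0.535. Kdr, the VEGF receptor of endothelium, gave 119, 112 and 110 on transgenic and 164, 154 and 130 on wild type arrays, without overlap, 0.787-fold with an adjusted p of 0.557. Kdr is itself 1 of the 5 endothelial markers, of which 5 were kept. All 5 had negative differences, at a median of -0.24, and their sum, with Kdr in it, was 974 to 1088 on transgenic and 1130 to 1267 on wild type arrays. The part of endothelial cell number in the values of Kdr and of the basement membrane genes was not tested. Mstn, myostatin, was below the filter. Proteases that cleave SLRPs were 8 of 10 kept, 4 positive and 4 negative, and Mmp2, a gelatinase that fibroblasts make, had a difference of 0.04. The largest difference among these proteases was that of Mmp9, 0.38 with overlap. Of the remaining marker lists, macrophage genes (5 of 5 kept) had a median difference of -0.07, bone genes (4 of 7) -0.12 and smooth muscle genes (5 of 5) 0.03. Of 5 other SLRP genes kept of 9 listed, 3 were positive and 2 negative.

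Other proteoglycans, 18 of 21 kept, were 8 positive and 10 negative at a median of -0.06. Gpc4, a glypican that carries heparan sulphate at the cell surface, gave 280, 342 and 331 on transgenic and 431, 447 and 448 on wild type arrays. Its genotypes did not overlap, at 0.726-fold with an adjusted p of 0.177. Srgn, the serglycin of blood cell granules, gave 1012, 922 and 942 on transgenic and 1025, 1115 and 1078 on wild type arrays, without overlap, at 0.895-fold. Hspg2, the basement membrane proteoglycan perlecan, gave 142, 110 and 178 on transgenic and 217, 160 and 225 on wild type arrays, 0.730-fold with overlap and an adjusted p of 0.561. Spock3, a dim gene, had the largest difference of the list, -0.51, without overlap and with an adjusted p of 0.526 in limma. In this list 4 of 18 genes had all transgenic arrays below all wild type arrays, beside 7.56% of all genes tested. It was the highest such count among the lists of genes linked to SLRPs, the others holding 0 or 1 each. Nothing is read from it.

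**Figure D5:**
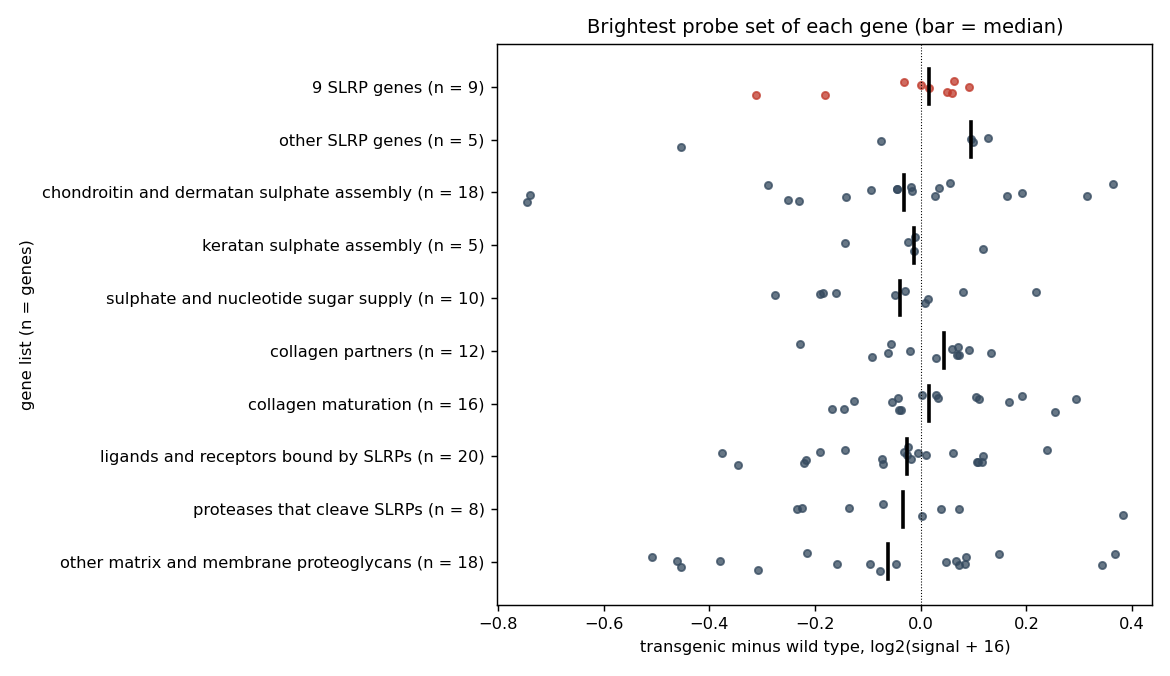
Difference between genotypes (transgenic minus wild type, log2(signal + 16)) of the brightest kept probe set of each gene, for the 9 SLRP genes (red) and for 9 lists of genes linked to them (dark blue); vertical bars are medians and the vertical scatter within a row has no meaning. The medians lie between -0.06 and 0.09, and Dcn is the lowest of the SLRP genes at -0.31.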

How the data were processed

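Expression was read on 6 Affymetrix Mouse430_2 arrays of pooled calf muscle RNA. The deposited table holds one linear intensity for each probe set; GCOS 1.1.1 is named as the software in the submitters' processing notes, while algorithm and scaling target are unstated. Array medians were 34.0 to 38.4, so a scaling alternative was run. The fluidics module of each array was read from its deposited run file. The hybridisation round was not read as a label. It was assigned here from a gap between the clock times of hybridisation in those files, without use of the dates.

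From 45101 rows, 64 control rows were removed. The deposited intensities were converted to log2(signal + 16), which understates changes of dim transcripts, and probe sets with a mean above the 40th percentile were kept. The genotypes were compared in limma 3.58.1 (R 4.3.3) by a linear model with an intensity trend and no covariates, two-sided, with Benjamini-Hochberg adjustment over 27022 probe sets; the script was tested on simulated data. P-values weigh the difference between genotypes against the spread between pools, which the model moderates over all tested probe sets, and the number of arrays limits the precision.

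Symbols came from the platform annotation, updated through gene identifiers to the RefSeq table of GRCm38.p6: 34945 probe sets carried 1 symbol, 932 several and 9160 none. By rule the text names every SLRP probe set and Itga7. It takes list genes from those called, the 3 of each list with the largest differences and the 2 brightest, but does not name all of these. For Dcn and for the most variable member it names the 5 probe sets most like it. Pdgfra, Scx, Mstn, Ecm2, Epyc and Optc were named after their values were seen. Members and lists were chosen with earlier results of these data known. Same-numbered arrays did not deviate together (correlations 0.003, 0.06 and 0.05), so the numbers were not taken as pairs. Alternatives were other offsets, scalings, filters, variance models, weights, blocks and left-out arrays.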

Additional observations from a re-analysis of the deposited data

How the results depend on the processing

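The 20 SLRP probe sets gave 0 calls in limma under all alternatives but 1, and 3 had an unadjusted p under 0.05; the family was selected on this comparison, so neither is a test of it. Under a random block for the fluidics module 1 passed, the bright one of Dcn at -0.31, along with 2 of the related genes, Chst15 and Gpc4, which otherwise gave 0 calls; each module held 1 genotype, and the correlation within modules was -0.44. Over the whole array the count of 33 was 297 with that block, 51 with equal array medians, 17 with no filter and 1 without the intensity trend, and leaving out an array gave 18 to 39, the lowest without wild type replicate 2, with 19 without wild type replicate 1; the cause was not tested. The replicate block gave 36 calls and the hybridisation round as a block 47. The bright Dcn probe set stayed negative over its 18 alternatives, from -0.34 to -0.24, as did both of Ogn. Nothing is read from this, since the family was selected on this comparison. These probe sets had no overlap between genotypes, so leaving out arrays could not change their sign. Several other settings left the difference as it was. Of the SLRP differences under the alternatives, 352 moved by less than the SD within genotypes and 7 by more. Many of them could not have moved by more. Leaving out a single array always shifts the difference by less than that SD. Other filters, the variance model and blocks by replicate or round leave the difference itself unchanged. The count is therefore not a measure of stability. Hybridisation round 1 alone was an alternative chosen after seeing the data. Near the filter, signal over background limits what the dim Dcn probe set can show.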
